A study of Mus musculus with 32 samples.

Results

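The 10 chemokine genes described here were measured in trachea and lung of Car6-/- and wild-type mice, where Car6 encodes a carbonic anhydrase secreted into saliva. They are Cxcl1, Cxcl2, Cxcl12, Cxcl13, Cxcl14, Ccl6, Ccl9, Ccl11, Ccl17 and Ccl19. A probe was taken when its gene symbol in the annotation of the array was one of these names, which gave 16 probes for the 10 genes, of 25697 probes and 16593 named genes on the array. Cxcl12 had 5 probes, Cxcl14 and Ccl11 had 2 each, and the other genes 1 each. Total RNA, 150 ng per sample, was labelled with biotin and read on Illumina bead arrays, which report 1 mean bead signal per probe and a detection p-value against negative control beads. The groups were Car6-/- trachea (n = 6), wild-type trachea (n = 8), Car6-/- lung (n = 6) and wild-type lung (n = 8), all from C57BL/6 males aged 2 months. The labels do not say how the Car6 allele was made, nor that samples of 1 group came from separate animals or that a lung and a trachea of 1 number came from 1 animal, so the p-values measure the spread between these samples. Values below are normalized log2 intensities, and a change is a log2 difference with its standard error.

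Chemokines are small secreted proteins that direct the movement of leukocytes through receptors of the G protein-coupled family. Inflammatory members are induced during infection or injury and draw neutrophils, monocytes or eosinophils into tissue, while homeostatic members are made constitutively and place lymphocytes, dendritic cells and progenitors. In the airways, epithelium, fibroblasts, endothelium and macrophages are all sources of such signals.

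Arrays detected 11735 to 13139 probes at a detection p under 0.01, and the median signal was 92.4 to 118.3. Car6 itself was detected on 0 of 32 arrays, so its probe did not check the genotype labels. Alveolar type 2 markers were at 8 of 8 genes detected in every lung, with a summed linear signal of 47950 to 54200 in Car6-/- lung and 50420 to 52900 in wild-type lung. Skeletal muscle markers summed to 16150 in Car6-/- lung 5, against 431.4 to 780.4 in the other Car6-/- lungs, and to 3510 in wild-type lung 6, whose thyroid sum was 1426 and whose sum of basal and stratified epithelium markers was 731.5. Among the tracheas, Car6-/- trachea 1 and 2 stood apart in several marker lists. Their alveolar type 2 sums were 18510 and 23550, with 8 of 8 markers detected, against 2553 to 4776 and at most 5 of 8 in wild-type trachea, where Sftpb and Lamp3 were detected in no sample. Their skeletal muscle sums were 3020 and 26190, against 65980 to 106700 in wild-type trachea. Their thyroid sums of 183.6 and 163.2, and 178.8 in Car6-/- trachea 7, compared with 15130 to 18280 in wild-type trachea. The B cell sum, over 11 markers, was 1713 in Car6-/- trachea 1 and 7771 in Car6-/- trachea 2, against 366.7 to 504.3 in wild-type trachea. Glycam1, a marker of high endothelial venules of lymph nodes, was at 8.19 and 10.79 in these samples with detection in 4 of 6 tracheas of Car6-/- mice, against 0 of 8 in wild-type mice. Thyroid in Car6-/- trachea 6 was at 8844, between these samples and the wild-type range. Basal and stratified epithelium sums were 3302 and 4905 in wild-type trachea 1 and 5, against 21550 to 26460 in the other wild-type tracheas. In Car6-/- trachea they ran from 1412 to 24720. Thymocyte sums ran from 606.6 to 7117 in wild-type trachea and from 1034 to 9964 in Car6-/- trachea. The part of these 2 lists in the chemokine values was not tested. Adipocyte sums were 7299, 6280, 10450 and 8023 in Car6-/- trachea 1, 2, 6 and 7, against 2417 to 3769 in wild-type trachea, and their part in the genotype changes in trachea was not tested. The members' tissue changes in Car6-/- mice, and some of their genotype changes, are also given with Car6-/- trachea 1, 2 and 6 left out. These samples were chosen with member values known. They hold the highest value of that group for Cxcl1, Cxcl12, Cxcl13, Cxcl14, Ccl6, Ccl9, Ccl11 and Ccl19. Lower values without them therefore follow from the choice. Car6-/- trachea 7 was kept, with a thyroid sum of 178.8 and an adipocyte sum of 8023. It holds the lowest Cxcl13 and Cxcl14 of all tracheas. The second array of wild-type trachea 2 lay closer to wild-type trachea 6 than to its own first array (root mean square difference 0.31 and 0.33), and 0 members were called between genotypes with second arrays left out as well.

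Between the genotypes no chemokine gene passed the test in either tissue. Cxcl2 did not pass the detection filter in any comparison, and Ccl17 did not pass it for genotype in trachea. In trachea 0 of the 8 members tested were called by limma at an adjusted p under 0.05, where 0% of 9736 genes were called and 17.2% had an unadjusted p under 0.05. The number of genes called there was 693 without Car6-/- trachea 4, and the members called were then still 0. In lung 0 of 9 members were called, where 0.0212% of the 9417 genes tested were called (9.39% had an unadjusted p under 0.05). Leaving out Car6-/- lung 7 gave 44 genes in place of those 2, leaving out Car6-/- lung 5 gave 5, and leaving out Car6-/- lung 1, 2, 4 or 6 gave 0. Leaving out wild-type lung 1 or 8 gave 4, number 3 gave 1, and numbers 4 to 7 each gave 0. For the genotype effect in trachea minus that in lung, 0 of 9 members were called, against 0% of 10532 genes (13.7% had an unadjusted p under 0.05). That count of genes was 675 without Car6-/- trachea 4, 218 without Car6-/- trachea 5 and 2 without wild-type trachea 3.

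Between the tissues most members changed, and in the same direction in both genotypes. In Car6-/- mice 8 of 9 tested members differed between trachea and lung, 4 higher and 4 lower in trachea, where 48.4% of 9500 genes were called, 20.4% higher and 28.1% lower. In wild-type mice 8 of 9 were called, again 4 higher and 4 lower, against a background of 68.3% of 10019 genes, 29.8% higher and 38.5% lower. By the brightest probe of each gene, the higher ones were Cxcl13, Ccl11, Ccl9 and Ccl19, and the lower ones Cxcl14, Ccl17, Ccl6 and Cxcl12. Of these, Ccl17 passed the detection filter through lung, where it is high, so its call is no separate support. Another detected probe of Cxcl12 was higher in trachea in both genotypes, so Cxcl12 is counted as lower for its brightest probe only. In Car6-/- mice the values of 5 members did not overlap between the tissues, where those of 29.1% of all genes did not, and in wild-type mice those of 6 members, where 36.6% did not. The unadjusted p was under 0.05 for 54.5% of genes in Car6-/- and 70.8% in wild-type mice, so most genes of these tissues differ and the counts alone say little about chemokines. The median change of the members was -0.19 in Car6-/- and -0.24 in wild-type mice, against -0.07 and -0.09 over all genes. Each member median is the value of Cxcl1, which was near background and not called, so it shows no lean of the members. Without Car6-/- trachea 1, 2 and 6, 8 members were again called in Car6-/- mice. Of all genes 4636 were then called, against 4602 with all samples. The member changes were then -3.41 for Cxcl14, -2.19 for Ccl6, -1.97 for Cxcl12, -1.66 for Ccl17, 2.06 for Ccl11 and 1.83 for Cxcl13. They were 0.57 for Ccl9 and 0.46 for Ccl19. Under median scaling the median of all genes in Car6-/- mice was -0.19 and the share of calls that were higher was 30.2% instead of 42.1%. Whole tissue was measured, so fewer cells of a type and less RNA per cell cannot be told apart.

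**Figure D1:**
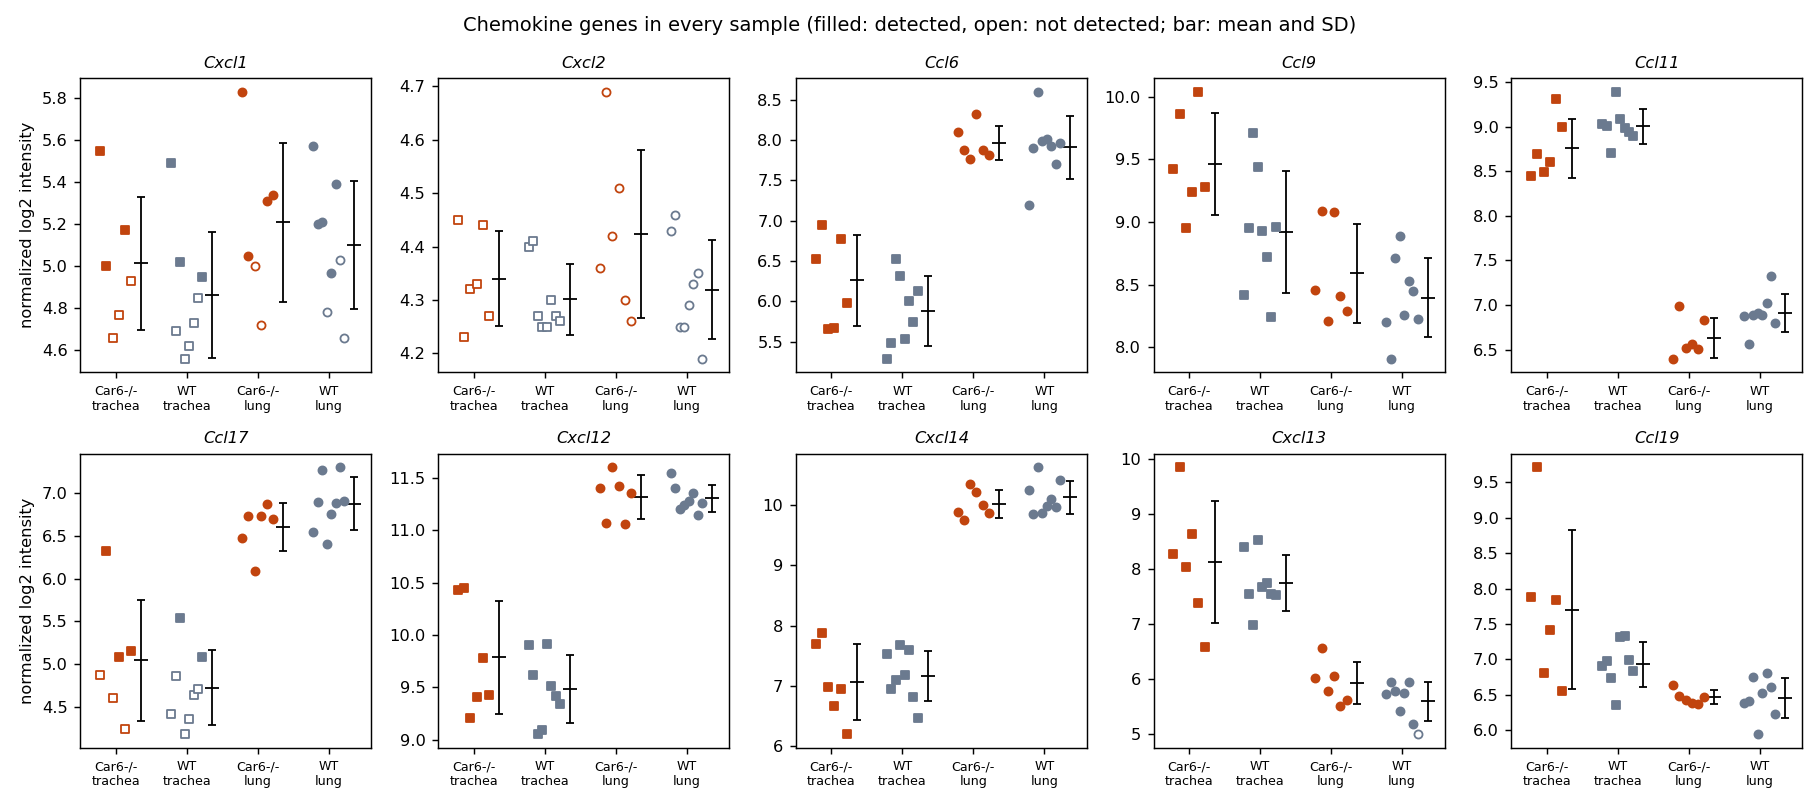
Normalized log2 intensity of the 10 chemokine genes in every sample of Car6-/- trachea, wild-type trachea, Car6-/- lung and wild-type lung, 1 probe per gene. Filled points were detected, open points were not, the black bar is the mean with the SD, and each panel has its own axis. Cxcl2 is open in all 28 samples, Cxcl12, Cxcl14, Ccl6 and Ccl17 sit lower in trachea, and Cxcl13 and Ccl11 sit higher there. Cxcl12 is shown by its brightest probe, and another of its probes is higher in trachea.

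The neutrophil attractants Cxcl1 and Cxcl2, both ligands of Cxcr2, were at or near background. Cxcl1 was detected in 15 of 28 samples. Its intensity in trachea was 4.66 to 5.55 (median 4.97) in Car6-/- mice and 4.56 to 5.49 (median 4.79) in wild-type mice. In lung it was 4.72 to 5.83 (median 5.18) in Car6-/- mice and 4.66 to 5.57 (median 5.11) in wild-type mice. All 4 groups overlapped, and detected samples occurred in each of them. The change between genotypes was 0.15 (95% interval -0.20 to 0.50) in trachea and 0.11 (-0.23 to 0.45) in lung. Trachea against lung gave -0.19 ± 0.19 in Car6-/- mice (adjusted p = 0.432) and -0.24 ± 0.14 in wild-type mice (adjusted p = 0.152). The wild-type change was -0.32 without wild-type trachea 1 (adjusted p = 0.0292). Cxcl2 was detected in 0 of 28 samples, with a lowest detection p of 0.0539 on any array and signals of 77.0 to 103.3, so no change is given for it. In each of the 4 groups the sample numbered 1 had the highest Cxcl1, at 5.55 in Car6-/- trachea, 5.49 in wild-type trachea, 5.83 in Car6-/- lung and 5.57 in wild-type lung, and whether number 1 marks 1 animal or batch is not given by the labels.

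Cxcl1 and Cxcl2 lie side by side on chromosome 5, with 0 genes wholly between them in RefSeq, and the 250 bases before their starts are shown because the windows share a run of letters although Cxcl1 alone was detected. The sequences are from RefSeq, build GRCm38.p6, plus strand, chr5:90890995-90891244 for Cxcl1 and chr5:90903649-90903898 for Cxcl2. Capitals mark the longest run the windows share, 14 bases, at -71 to -58 before the start of Cxcl1 and -97 to -84 before that of Cxcl2. It holds letters of the kappaB type, the class of site that NF-kB proteins bind.
Cxcl1: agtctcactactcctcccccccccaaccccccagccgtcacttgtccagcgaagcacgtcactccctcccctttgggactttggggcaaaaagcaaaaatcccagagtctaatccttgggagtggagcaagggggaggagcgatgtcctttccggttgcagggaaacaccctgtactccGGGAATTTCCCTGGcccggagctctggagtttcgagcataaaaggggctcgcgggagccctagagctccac
Cxcl2: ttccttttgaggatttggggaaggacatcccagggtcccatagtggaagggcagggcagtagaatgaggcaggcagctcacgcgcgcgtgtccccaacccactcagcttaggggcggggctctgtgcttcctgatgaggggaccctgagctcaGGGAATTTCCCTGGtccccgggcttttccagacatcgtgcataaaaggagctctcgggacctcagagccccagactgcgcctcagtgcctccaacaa
The run GGGAATTTCCCTGG was found on either strand in 2 of the 32851 upstream windows of the table, 0.00609%, which are those of Cxcl1 and Cxcl2 themselves. Of the 9 members with a window, the other members lack it. The run was taken from the windows of Cxcl1 and Cxcl2, so finding it there was fixed beforehand. So long a run is rare by its length, and no kappaB motif was searched for. A match describes letters and shows nothing about binding.

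Ccl6 and Ccl9 are CC chemokines of rodents, made mainly by myeloid cells, that signal through Ccr1. They lie side by side on chromosome 11, with 0 genes wholly between them, and differed between the tissues in opposite directions. Ccl6 in trachea was 5.66 to 6.95 (median 6.25) in Car6-/- mice and 5.29 to 6.53 (median 5.87) in wild-type mice, against 7.77 to 8.33 (median 7.88) in Car6-/- lung and 7.19 to 8.60 (median 7.95) in wild-type lung. Every trachea lay below every lung. The change, trachea minus lung, was -1.70 ± 0.23 in Car6-/- mice (adjusted p = 5.12e-05) and -2.03 ± 0.19 in wild-type mice (adjusted p = 3.55e-08). Wild-type trachea thus had a 4.08-fold lower background-corrected intensity of Ccl6 than wild-type lung. With no background correction the change was -1.08 in Car6-/- and -1.23 in wild-type mice.

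Ccl9 in trachea was 8.95 to 10.04 (median 9.35) in Car6-/- mice and 8.24 to 9.71 (median 8.94) in wild-type mice, against 8.21 to 9.09 (median 8.43) in Car6-/- lung and 7.91 to 8.89 (median 8.35) in wild-type lung. The tissues overlapped in both genotypes. Trachea exceeded lung by 0.87 ± 0.22 in Car6-/- mice (adjusted p = 0.00451) and by 0.52 ± 0.19 in wild-type mice (adjusted p = 0.0205). The wild-type call ended under median scaling or quantile normalization within each tissue, where the change was 0.36 (adjusted p = 0.103), and the Car6-/- change was 0.57 (adjusted p = 0.0488) without Car6-/- trachea 1, 2 and 6. Beside these results, the macrophage list, 8 genes with 2 detected nowhere, had a sum of 613 to 3432 in Car6-/- trachea against 4351 to 7667 in Car6-/- lung. In wild-type mice it was 572.2 to 1336 in trachea and 3779 to 6155 in lung. Chil3, at 6.98 in Car6-/- trachea against 12.09 in Car6-/- lung and 5.16 in wild-type trachea against 11.95 in wild-type lung, carries most of that difference, while Fabp5 was at 7.64 in wild-type trachea against 6.52 in wild-type lung. The part of these markers in the 2 results was not tested.

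Between genotypes Ccl9 had the lowest unadjusted p of the members in trachea, 0.0325. Car6-/- trachea stood 0.55 above wild-type trachea (95% interval 0.05 to 1.04, adjusted p = 0.252), all 6 Car6-/- samples above the wild-type mean and 2 of them above every wild-type sample. Without Car6-/- trachea 1, 2 and 6 it was 0.24. Ccl6 in trachea differed by 0.38 (-0.15 to 0.92). Its 3 highest Car6-/- values are those of the samples left out, and the value without them was -0.11. In lung the differences were 0.19 (-0.16 to 0.55) for Ccl9 and 0.05 (-0.28 to 0.39) for Ccl6. Across the 14 tracheas, as deviations from the genotype mean, Ccl6 and Ccl9 had a Pearson r of 0.80 and a Spearman rho of 0.77, and an r of 0.72 without the 2 samples farthest out for Ccl6. That description shares arrays and tissue composition between the genes.

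The upstream windows of Ccl6 and Ccl9 are shown because the genes are neighbours whose intensities differed between the tissues in opposite directions. Both are on the minus strand of GRCm38.p6, chr11:83593088-83593337 for Ccl6 and chr11:83578637-83578886 for Ccl9. Capitals mark the longest run the windows share, 13 bases, at -55 to -43 before the start of Ccl6 and -14 to -2 before that of Ccl9.
Ccl6: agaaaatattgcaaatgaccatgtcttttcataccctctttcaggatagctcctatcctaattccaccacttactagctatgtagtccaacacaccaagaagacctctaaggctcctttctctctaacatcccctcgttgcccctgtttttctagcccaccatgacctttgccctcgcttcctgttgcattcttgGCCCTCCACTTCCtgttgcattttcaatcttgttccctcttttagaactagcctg
Ccl9: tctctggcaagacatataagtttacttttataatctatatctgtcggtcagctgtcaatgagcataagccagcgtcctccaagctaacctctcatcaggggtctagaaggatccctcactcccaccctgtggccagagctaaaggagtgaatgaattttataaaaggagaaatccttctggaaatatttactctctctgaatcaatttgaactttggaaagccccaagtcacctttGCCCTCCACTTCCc
The run lies at unequal distances from the starts, and neither window holds the run shared by Cxcl1 and Cxcl2.

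Ccl11, or eotaxin, attracts eosinophils through Ccr3 and is made by fibroblasts and epithelium. It was higher in trachea in every sample. Its brighter probe was at 8.45 to 9.31 (median 8.64) in Car6-/- trachea and 8.70 to 9.39 (median 8.99) in wild-type trachea, against 6.40 to 6.99 (median 6.54) in Car6-/- lung and 6.56 to 7.33 (median 6.89) in wild-type lung. The tissues did not overlap. Trachea exceeded lung by 2.12 ± 0.16 in Car6-/- mice (adjusted p = 8.8e-07) and by 2.10 ± 0.10 in wild-type mice (adjusted p = 4.94e-12), a 4.27-fold higher background-corrected intensity in wild-type trachea. Over the other processing settings the wild-type change ran from 1.59 to 2.10. The second probe gave 1.69 ± 0.19 in Car6-/- and 1.85 ± 0.19 in wild-type mice. Fibroblast markers, 10 of 10 detected in every sample, summed to 13290 to 19180 in Car6-/- trachea against 8314 to 11900 in Car6-/- lung, and to 14160 to 20310 in wild-type trachea against 8753 to 12060 in wild-type lung. Dcn carries most of the difference, at 13.16 in Car6-/- trachea against 11.85 in Car6-/- lung, while Pdgfra ran the other way, at 9.25 in Car6-/- trachea against 11.00 in Car6-/- lung and 9.13 in wild-type trachea against 10.95 in wild-type lung. The part of these markers was not tested.

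Ccl11 was the member with the lowest unadjusted p in lung, 0.0254. Car6-/- lung was 0.27 below wild-type lung (change -0.27, 95% interval -0.51 to -0.04, adjusted p = 0.433), with 3 of 6 Car6-/- lungs below every wild-type lung. In trachea the change was of like size, -0.25 (-0.56 to 0.05, adjusted p = 0.383), with 4 of 6 Car6-/- tracheas below every wild-type sample. The change in trachea minus that in lung was 0.02 (-0.35 to 0.40). These values did not pass the test in either tissue, and the groups overlapped in both.

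Ccl17, a ligand of Ccr4 that dendritic cells produce and that attracts T cells, was lower in trachea than in lung. In lung it was detected in every sample, at 6.09 to 6.87 (median 6.72) in Car6-/- mice and 6.41 to 7.30 (median 6.89) in wild-type mice. In trachea it was detected in 3 of 6 Car6-/- samples, at 4.24 to 6.32 (median 4.97), and in 2 of 8 wild-type samples, at 4.18 to 5.54 (median 4.68). Only Car6-/- trachea 2, at 6.32, reached the range of the Car6-/- lungs. Trachea against lung gave -1.56 ± 0.28 in Car6-/- mice (adjusted p = 0.000513) and -2.15 ± 0.18 in wild-type mice (adjusted p = 5.33e-09). Ccl17 passed the detection filter through lung, where it is high. These p-values therefore give no support beyond its detection in lung. Since most tracheas did not detect Ccl17, these sizes depend on how background is treated, and with no background correction they were -0.67 in Car6-/- and -0.95 in wild-type mice. Too few tracheas detected it for a test of genotype there, and in lung Car6-/- against wild type gave -0.27 (-0.57 to 0.04). The dendritic cell list, 10 genes with 2 detected nowhere, summed to 321.2 to 1295 in Car6-/- trachea, highest in sample 2, against 426.6 to 517.4 in Car6-/- lung, and to 325.5 to 456.4 in wild-type trachea against 477.2 to 573.5 in wild-type lung. Flt3, Xcr1 and Clec9a, markers of this list, were at or near background in all 4 groups. The part of this list in the Ccl17 difference was not tested.

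**Figure D2:**
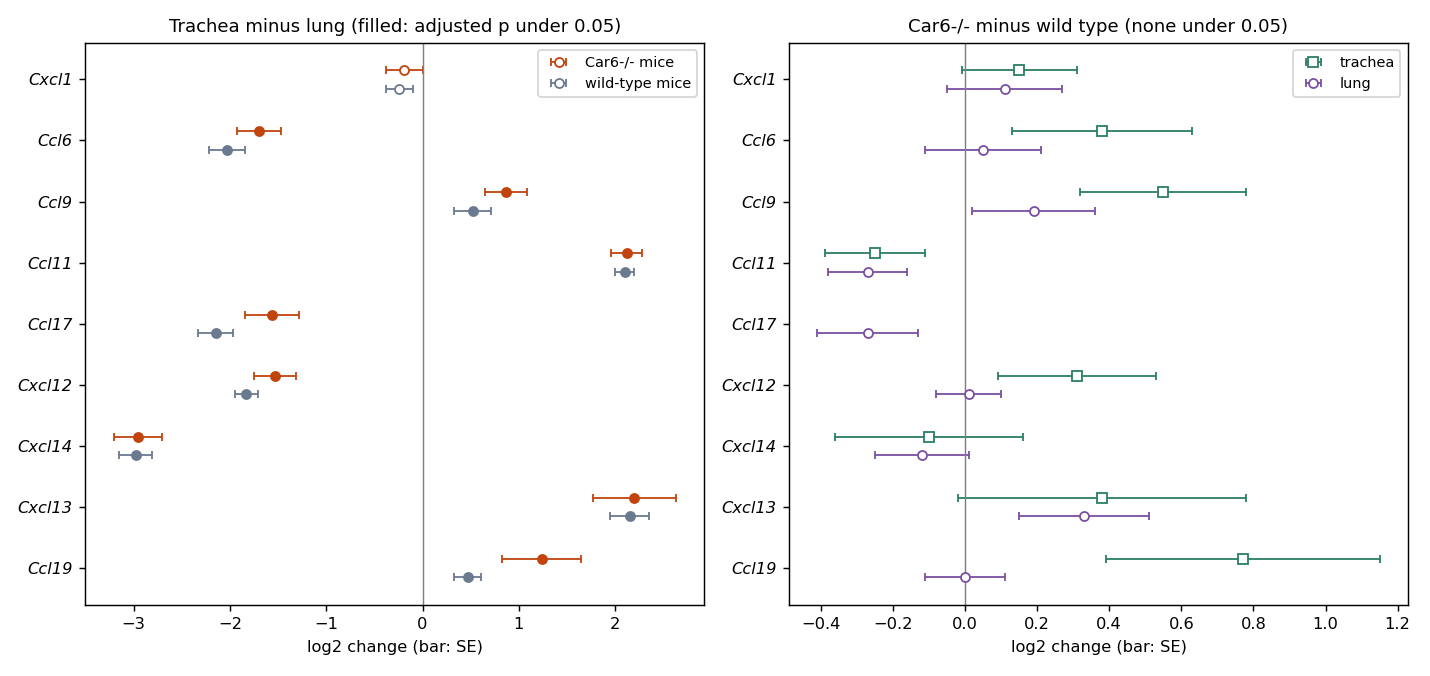
Log2 changes with standard errors of the 9 tested chemokine genes, by the brightest probe of each. The left panel gives trachea minus lung in Car6-/- and wild-type mice, and the right panel Car6-/- minus wild type in trachea and lung. Filled points have an adjusted p under 0.05: 8 of 9 are filled for each genotype on the left, and 0 on the right, where Ccl19 in trachea has the largest change, 0.77, with a standard error of 0.38.

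Cxcl12, the homeostatic ligand of Cxcr4 that retains haematopoietic progenitors and guides lymphocytes, is made by stromal and endothelial cells. The probe annotated to transcript NM_013655 was the brightest of its probes. In trachea it was at 9.21 to 10.45 (median 9.61) in Car6-/- mice and 9.05 to 9.91 (median 9.46) in wild-type mice, against 11.06 to 11.60 (median 11.38) in Car6-/- lung and 11.15 to 11.55 (median 11.27) in wild-type lung. Every trachea was below every lung. The change was -1.53 ± 0.22 in Car6-/- mice (adjusted p = 8.3e-05) and -1.83 ± 0.12 in wild-type mice (adjusted p = 2.54e-10). The endothelial list, 10 genes, summed to 3705 to 10590 in Car6-/- trachea against 27220 to 33220 in Car6-/- lung, and to 3654 to 5409 in wild-type trachea against 27880 to 31200 in wild-type lung. Its part was not tested.

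The probes of Cxcl12 did not move together between the tissues. The probe for NM_001012477 was also lower in trachea, with changes of -1.33 ± 0.24 in Car6-/- mice and -1.40 ± 0.18 in wild-type mice. The probe for NM_021704 went the other way. It was at 6.96 to 8.18 (median 7.36) in Car6-/- trachea and 7.27 to 7.87 (median 7.52) in wild-type trachea, against 5.62 to 6.43 (median 5.81) in Car6-/- lung and 5.91 to 6.51 (median 6.21) in wild-type lung. Trachea exceeded lung by 1.54 ± 0.20 in Car6-/- mice (adjusted p = 3.63e-05 over 12401 probes) and by 1.28 ± 0.10 in wild-type mice (adjusted p = 3.4e-09 over 13111 probes). For all 3 probes the tissues did not overlap in either genotype. The other 2 probes of Cxcl12 were detected in no sample, although the annotation gives 1 of them to NM_021704 and 1 to NM_001012477 as well. A direction for Cxcl12 between the tissues is therefore given for single probes, and neither for a transcript nor for the gene as a whole. No probe of Cxcl12 was called between genotypes. The NM_021704 probe had the lowest adjusted p of them in lung, 0.384, with a change of -0.33 ± 0.12, and the NM_013655 probe changed by 0.31 (-0.16 to 0.77) in trachea and 0.01 (-0.18 to 0.21) in lung. Car6-/- trachea 1 and 2, at 10.43 and 10.45, lay above every wild-type trachea, and the trachea change was -0.13 without Car6-/- trachea 1, 2 and 6.

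**Figure D3:**
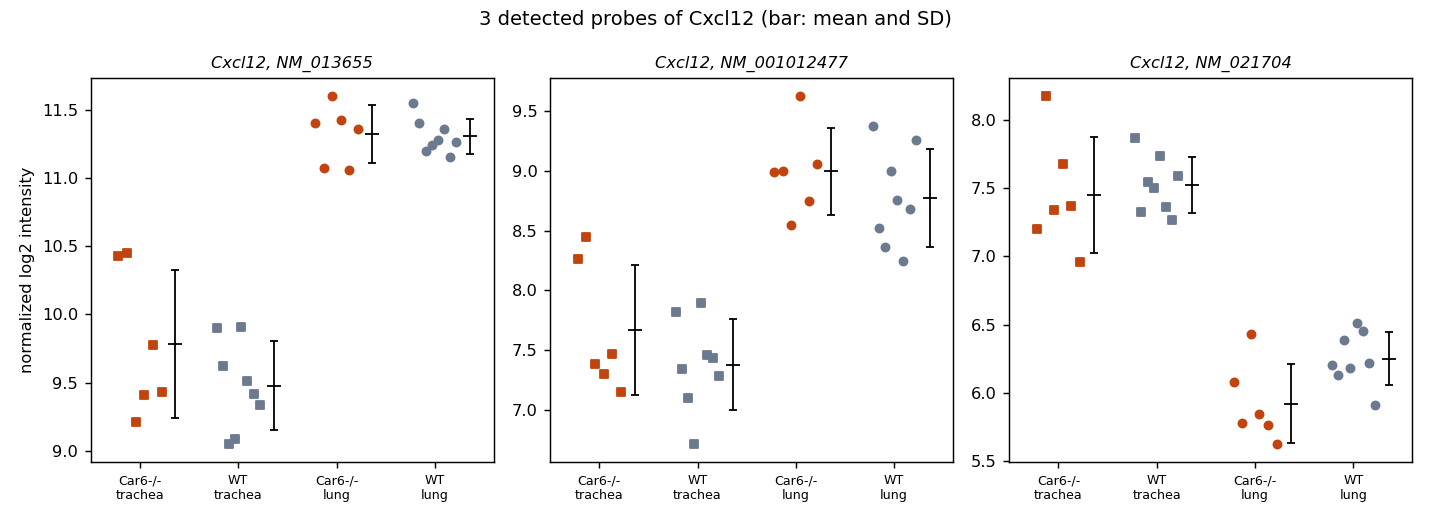
Normalized log2 intensity of the 3 detected probes of Cxcl12, named by their annotated transcript, in every sample of the 4 groups, with the mean and SD as black bars. Each panel has its own axis, since levels of different probes cannot be compared. The left and middle probes are lower in trachea than in lung, and the right probe is higher in trachea.

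Cxcl14, a chemokine made constitutively by epithelia, had the largest tissue difference of the members. In trachea it was at 6.19 to 7.88 (median 6.96) in Car6-/- mice and 6.46 to 7.68 (median 7.13) in wild-type mice, against 9.76 to 10.36 (median 9.95) in Car6-/- lung and 9.86 to 10.63 (median 10.05) in wild-type lung. The tissues were separated in every sample. The change was -2.96 ± 0.25 in Car6-/- mice (adjusted p = 1.86e-06) and -2.98 ± 0.17 in wild-type mice (adjusted p = 2.83e-11), a 7.87-fold lower background-corrected intensity in wild-type trachea. Over the other processing settings the wild-type change ran from -3.09 to -2.45. The second probe gave -2.47 ± 0.18 in Car6-/- and -2.43 ± 0.14 in wild-type mice. Between genotypes the change was -0.10 (-0.66 to 0.46) in trachea and -0.12 (-0.39 to 0.15) in lung. The trachea value was -0.55 ± 0.26 without Car6-/- trachea 1, 2 and 6 (adjusted p = 0.936).

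Cxcl13, which attracts B cells to follicles through Cxcr5, was higher in trachea than in lung in both genotypes. Cxcl13 in trachea was 6.58 to 9.84 (median 8.15) in Car6-/- mice and 6.97 to 8.53 (median 7.61) in wild-type mice, against 5.50 to 6.56 (median 5.90) in Car6-/- lung and 4.99 to 5.95 (median 5.73) in wild-type lung. Every trachea was above every lung of its genotype. The change was 2.20 ± 0.43 in Car6-/- mice (adjusted p = 0.000904) and 2.15 ± 0.20 in wild-type mice (adjusted p = 3.14e-08), a 4.44-fold higher background-corrected intensity in wild-type trachea. With no background correction the change was 1.43 in Car6-/- and 1.24 in wild-type mice. The B cell sum was 366.7 to 504.3 in wild-type trachea, with 2 to 3 of 11 markers detected, against 1350 to 1761 in wild-type lung, with 8 detected. In Car6-/- mice it was 427.5 to 7771 in trachea and 939.6 to 1639 in lung. Its part in the Cxcl13 difference was not tested.

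Cxcr5, the receptor of Cxcl13, was not well above background in any wild-type trachea and at least 1.52-fold lower there than in wild-type lung (limma adjusted p = 1.91e-10). In Car6-/- trachea 1 and 2 it was at 6.23 and 8.37, against 4.33 to 4.94 in the other Car6-/- tracheas. Car6-/- trachea 2 also had the highest Cxcl13, 9.84, and the highest B cell sum. Between genotypes Cxcl13 changed by 0.38 (-0.48 to 1.24) in trachea, or 0.04 without Car6-/- trachea 2, and by 0.33 (-0.04 to 0.70, adjusted p = 0.585) in lung, where 5 of 6 Car6-/- samples lay above the wild-type mean.

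Ccl19, which with Ccl21 guides T cells and dendritic cells through Ccr7, showed its widest spread in Car6-/- trachea. It was at 6.55 to 9.71 (median 7.63) there and 6.35 to 7.33 (median 6.93) in wild-type trachea, against 6.37 to 6.64 (median 6.45) in Car6-/- lung and 5.94 to 6.80 (median 6.47) in wild-type lung. The tissues overlapped in both genotypes. Trachea exceeded lung by 1.24 ± 0.41 in Car6-/- mice (adjusted p = 0.0239) and by 0.47 ± 0.14 in wild-type mice (adjusted p = 0.00711). Without Car6-/- trachea 1, 2 and 6 the Car6-/- change was 0.46 (adjusted p = 0.0389), and the wild-type call ended in 1 model of all 4 groups (adjusted p = 0.123). With no background correction the wild-type change was 0.27.

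Of the members, Ccl19 also had the largest change between genotypes in trachea, 0.77 (-0.03 to 1.58, adjusted p = 0.312), with 4 of 6 Car6-/- samples above every wild-type trachea. The highest were Car6-/- trachea 2 at 9.71, Car6-/- trachea 1 at 7.88 and Car6-/- trachea 6 at 7.84. The change was 0.37 without Car6-/- trachea 2. Without all 3, which are the highest of the group, it was 0.00 ± 0.22, and nothing is read from that value. The genotype effect in trachea minus that in lung was 0.77 (-0.07 to 1.61, adjusted p = 0.401). In lung, Ccl19 did not separate the genotypes, with a change of 0.00 (-0.23 to 0.24).

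Car6-/- trachea 2 held the highest trachea value for 5 of the 8 members tested there, Cxcl12, Cxcl13, Cxcl14, Ccl6 and Ccl19. The lymphoid stroma and high endothelium list, 9 genes, summed to 7206 in Car6-/- trachea 1 and 10850 in Car6-/- trachea 2, against 4267 to 5758 in wild-type trachea. Mfge8, Pdpn and Lyve1 carry that sum in most samples. In Car6-/- trachea 2, however, Glycam1, at 10.79, lay above Pdpn, at 10.20, and Lyve1, at 10.17. The sum was higher still in lung, at 12170 to 14220 in Car6-/- and 12340 to 14110 in wild-type mice, where Glycam1 and Madcam1 were detected in no sample. The macrophage sum was 3432 and the dendritic cell sum 1295 in Car6-/- trachea 2, against at most 1336 and 456.4 in wild-type trachea. In Car6-/- trachea 2 Chil3, at 10.98, made up most of the macrophage sum, and Cd83, at 8.92, and Fscn1, at 8.61, most of the dendritic cell sum. How far these cell types, or lung tissue in these samples, enter the chemokine values was not tested.

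**Figure D4:**
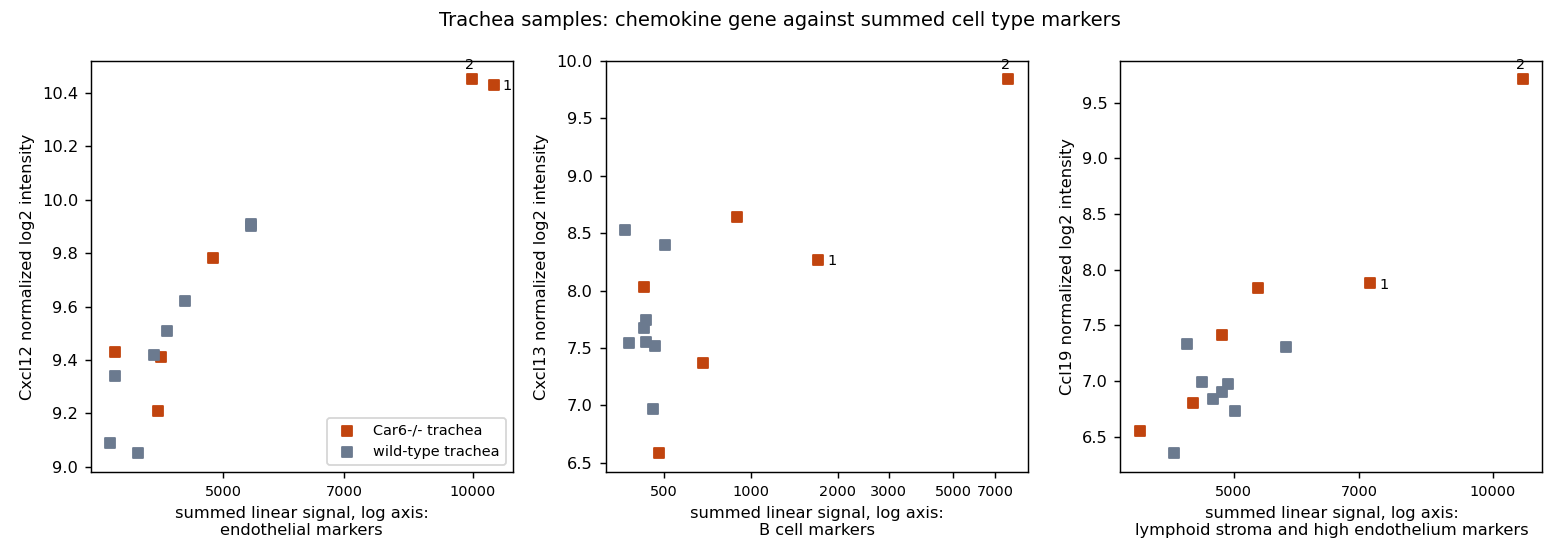
Normalized log2 intensity of Cxcl12, Cxcl13 and Ccl19 (vertical axes) against the summed linear signal of endothelial, B cell, and lymphoid stroma and high endothelium markers (horizontal log axes), 1 point per trachea sample of Car6-/- and wild-type mice. Car6-/- trachea 1 and 2 are numbered and lie at the right end of each panel, with B cell sums of 1713 and 7771.

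Genes whose intensity followed a member most closely were named by the highest Pearson r over the 14 tracheas, as deviations from the genotype mean. That r describes samples that share tissue composition. The 3 genes named per member were picked from 9736 tested in trachea and 9417 in lung, so a high r can come from the picking alone. Leaving out samples does not address that. For Cxcl12 they were Egfl7 (r = 0.95), Sox18 (0.94) and Ramp2 (0.94), all known from endothelium, and r was 0.91, 0.91 and 0.89 without Car6-/- trachea 1 and 2. For Ccl6 they were Fcna (0.93), Unc93b1 (0.90) and Lyve1 (0.89), and for Ccl9 Clec4a1 (0.93), Ms4a6d (0.89) and Tubb6 (0.83). Cxcl14 was followed by Sdf4 (0.93), Vtn (0.91) and Vegfc (0.90), Cxcl13 by Ankle2 (0.89), Otud7b (0.88) and Plvap (0.88), and Ccl19 by Shisa5 (0.94), an unnamed probe (0.93) and Sidt1 (0.90). For Cxcl1 they were Surf1 (0.89), Ddhd1 (0.89) and Trem2 (0.86), and for Ccl11 Agpat3 (0.86), Rtn4 (0.86) and Eral1 (0.84). Among the members themselves Cxcl12 and Ccl19 had an r of 0.76 in trachea, or 0.74 without the 2 farthest samples, while Cxcl13 and Ccl19 had 0.63, which became -0.25 without them. Without the 2 samples farthest out for the member, r was 0.57 for Rtn4 and 0.64 for Ddhd1 and Plvap, and at least 0.69 for the other genes named in trachea. In lung the 3 genes with the highest r had values of 0.79 to 0.92. Without the 2 farthest samples r was 0.45 for Ms4a8a, 0.54 for Dgat2, 0.60 for Tmem268, 0.63 for Smoc1 and Trim11, and at least 0.71 for the others. They were Tubgcp2, Nsmce1 and Preb for Cxcl1, Oaz2, Mthfd1 and Kdm4c for Cxcl12, Kcnk1, Zmynd10 and Ffar4 for Cxcl13, and Srgn, Abce1 and Fancl for Cxcl14. For the CC chemokines they were Tmem268, C1qtnf3 and Ms4a8a for Ccl6, AA467197, Iqgap2 and Slfn1 for Ccl9, Adh7, Smoc1 and Dgat2 for Ccl11, Trim11, Ces1f and Klhl7 for Ccl17, and Ppie, Serhl and Hint1 for Ccl19. None of these genes was among the 3 named for the same member in trachea.

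The other chemokine ligands also differed between the tissues in both directions. Of 30 on the array 8 were detected nowhere. In Car6-/- mice 17 were tested. Without Car6-/- trachea 1, 2 and 6, 3 were higher and 9 lower of 16, and nothing is read from these counts. The share of all genes called in each direction was not taken for that set. Car6-/- trachea 2, left out there, held the highest trachea values of Ccl21a, Ccl21b, Ccl21c and Ccl5. With all samples 5 were higher and 5 lower in trachea, where 20.4% of all genes were higher and 28.1% lower. The changes were -5.22 ± 1.00 for Cxcl15, or lungkine, a chemokine of lung epithelium in the mouse, -1.14 for the membrane-bound ligand Cx3cl1, -1.20 for Cxcl16 and -1.20 for Ccl4. The higher ones included the monocyte attractant Ccl7 (1.12), the interferon-induced Cxcl9 (1.61), Ccl25 (2.52 ± 0.77), which attracts thymocytes and gut T cells through Ccr9, and Ccl27a (0.46). Cxcl15 was at 11.00 and 11.64 in Car6-/- trachea 1 and 2, against 4.62 to 7.36 in the other Car6-/- tracheas, and its change was -6.87 ± 0.49 without Car6-/- trachea 1, 2 and 6.

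In wild-type mice 18 ligands were tested, 5 higher and 11 lower in trachea, where 29.8% of all genes were higher and 38.5% lower. Cxcl15 changed by -6.85 ± 0.31 (adjusted p = 1.65e-12), the platelet chemokine gene Ppbp by -3.03, Cxcl16 by -1.45 and Ccl4 by -1.43. Ccl25 was higher by 2.70 ± 0.61 (adjusted p = 0.000781), Ccl24 by 0.82, Cxcl9 by 0.58 and Ccl7 by 0.53. Ccl25 ranged in wild-type trachea up to 11.00 in sample 8 and down to 6.23 in sample 5, where the thymocyte sum over 8 markers was 7117 and 871.2, against 352 to 437.6 in wild-type lung, and its part was not tested. Ccl21a, Ccl21b, Ccl21c and Ccl27a have near-identical copies in the mouse genome, so their probes are uncertain.

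Chemokine receptors were largely near background. Of 22 on the array 8 were detected nowhere, among them Ccr1, Ccr3, Ccr4 and Ackr3, the receptors of Ccl6 and Ccl9, of Ccl11, of Ccl17 and, beside Cxcr4, of Cxcl12. Ackr1, an atypical receptor of venules that binds inflammatory chemokines, was detected in no lung. It was at least 2.70-fold higher in Car6-/- trachea (adjusted p = 9.8e-07) and at least 2.36-fold higher in wild-type trachea (adjusted p = 1.17e-12). In Car6-/- mice 10 receptors were tested, 1 higher and 3 lower, the lower ones being Ccrl2 (-2.41), the CC chemokine scavenger Ackr2 (-2.77) and Cxcr1, which no Car6-/- trachea detected and which was at least 1.56-fold lower. Cxcr4 (-0.91 ± 0.49), Cxcr5 (-0.10 ± 0.59) and Cxcr2 (-0.54 ± 0.39) did not pass the test in Car6-/- mice. Without Car6-/- trachea 1, 2 and 6, the change was -0.95 ± 0.22 for Cxcr5, -0.76 ± 0.44 for Cxcr4 and -0.68 ± 0.43 for Cxcr2. Car6-/- trachea 1 and 2 held the highest Cxcr5 of that group, 6.23 and 8.37, so its lower value follows from leaving them out. Of 8 receptors then tested, Ackr1 not being among them, 1 was higher, Ackr4 (0.75), and 5 were lower. Nothing is read from these counts. Over all genes, 20.4% were higher and 28.1% lower in trachea of Car6-/- mice with all samples, and 29.8% and 38.5% in wild-type mice. In wild-type mice 11 receptors were tested, 1 higher and 9 lower. Ackr2 changed by -3.20 ± 0.12 and Ccrl2 by -2.51 ± 0.10, and Ccr6 was not well above background in wild-type trachea and at least 1.55-fold lower. Among receptors of the members, the changes were -1.52 ± 0.26 for Cxcr4, -0.60 ± 0.12 for Ccr7 and -0.67 ± 0.25 for Cxcr2 (adjusted p = 0.0262).

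Acute inflammatory genes gave no call higher in trachea. Of 15 on the array, Il6, Ptgs2 and Sele were detected nowhere. In Car6-/- mice 10 were tested, 0 higher and 6 lower. The changes were -2.85 for the adhesion molecule gene Icam1, -3.40 for the lipocalin gene Lcn2, -0.86 for Socs3 and -1.50 for the cytokine gene Il1b. Without Car6-/- trachea 1, 2 and 6, 7 were lower, a count from which nothing is read. In wild-type mice 0 of 10 were higher and 8 lower, led by Icam1 (-3.19 ± 0.12), Lcn2 (-4.32 ± 0.22), Zfp36 (-0.79 ± 0.10) and Il1b (-1.97 ± 0.28). Of all genes, 28.1% were lower and 20.4% higher in Car6-/- trachea with all samples, and 38.5% lower and 29.8% higher in wild-type trachea.

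**Figure D5:**
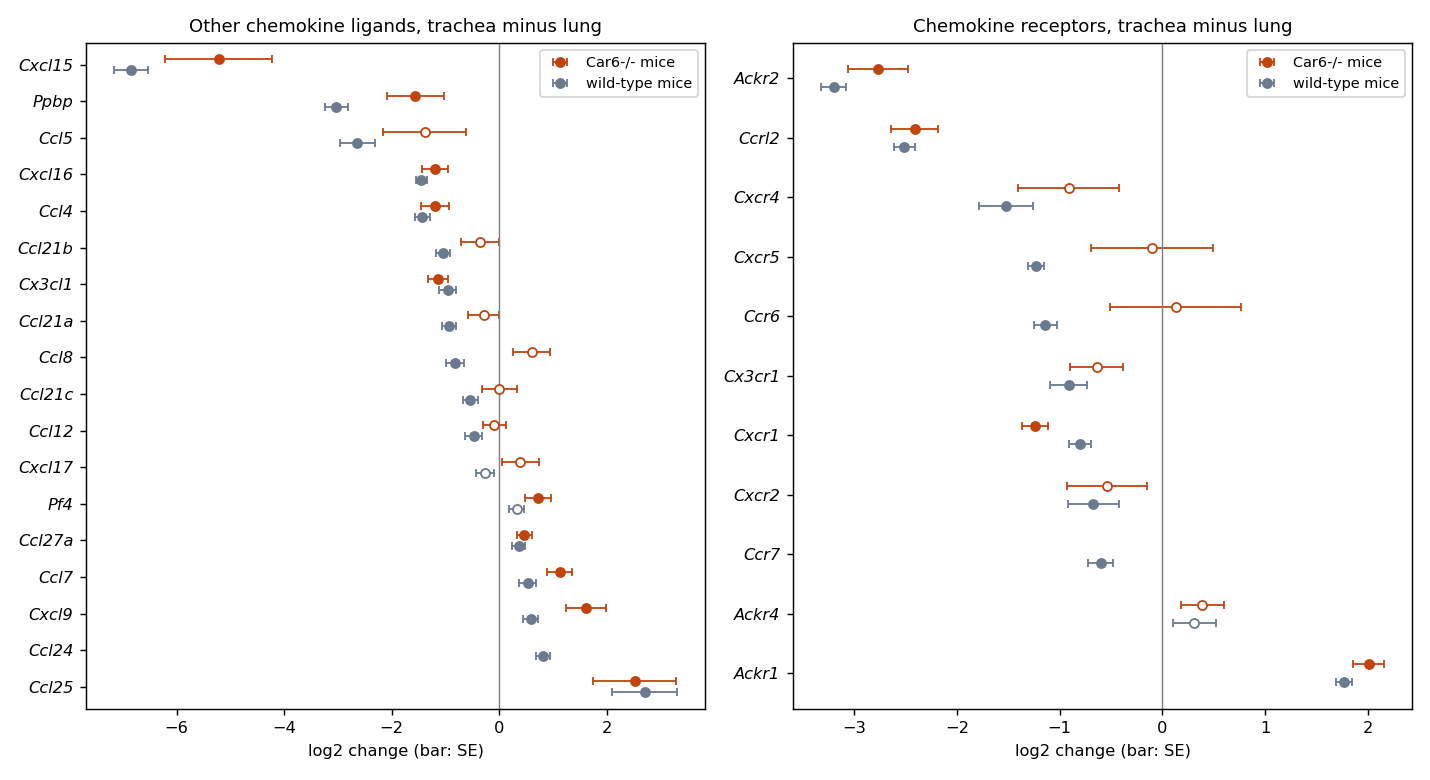
Log2 changes, trachea minus lung, with standard errors, of the other chemokine ligands and of the chemokine receptors tested in wild-type mice, in Car6-/- and wild-type mice. Filled points have an adjusted p under 0.05. Cxcl15 lies lowest at -5.22 in Car6-/- and -6.85 in wild-type mice, and Ackr1 is the 1 receptor with filled points above 0.

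None of these 3 lists held a gene called between genotypes. In trachea 0 of 18 ligands, 0 of 7 receptors and 0 of 10 inflammatory genes were called, and in lung 0 of 15, 0 of 10 and 0 of 10. The ligands with the smallest p in trachea were Ppbp, with 1.68 ± 0.43 (adjusted p = 0.151), and Cxcl9, with 1.13 ± 0.34 (adjusted p = 0.152). Car6-/- trachea 1 and 2 held the highest trachea values of Ppbp, 8.71 and 8.61, and of Cxcl9, 7.39 and 7.85. How far these samples enter the changes was not tested. In lung they were Ccl8, with -0.79 ± 0.20 (adjusted p = 0.169), and Ccl21a, with -0.14 ± 0.09. The receptors with the smallest p were Ackr2 (0.48 ± 0.28) and Ackr1 (0.18 ± 0.13) in trachea and Cxcr1 (0.47 ± 0.15) and Ackr4 (-0.28 ± 0.10) in lung. The inflammatory genes with the smallest p were Saa3 (0.57 ± 0.20) and Zfp36 (0.27 ± 0.11) in trachea and Nfkbia (0.27 ± 0.10) and Lcn2 (-0.24 ± 0.12) in lung. The median change of the members between genotypes was 0.35 in trachea and 0.01 in lung, against 0.04 and 0.00 over all genes tested. Without Car6-/- trachea 1, 2 and 6, chosen with member values known, the trachea changes ran from -0.55 for Cxcl14 to 0.24 for Ccl9. For the difference of the genotype effect between tissues the smallest p belonged to Ccl8 (1.42 ± 0.37, adjusted p = 0.177) and Cxcl9 (1.03 ± 0.37), to Cxcr1 (-0.44 ± 0.17) and Ccr6 (1.27 ± 0.60), and to Saa3 (0.59 ± 0.31) and Lcn2 (0.92 ± 0.52).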

How the data were processed

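The authors deposited a table of linear probe intensity, 1 signal per probe and array with a detection p-value beside each, per the file headers. The table is titled non-normalized, and its values, none near 0 and with unequal array medians, show no background subtraction. A second deposited table holds log2 values, which recomputation matched to quantile normalized log2 intensity per tissue, 100% of values within 0.005. The sources used here name no scanner software. From the intensities, normexp background correction was run with nec of limma 3.58.1 under R 4.3.3 at an offset of 16, then all 32 arrays were quantile normalized and put on the log2 scale. The 2 arrays of each of 4 samples were averaged, which left 28 samples. A probe was tested where at least 6 samples of a comparison had a detection p under 0.01, and the brightest probe stood for a gene. Groups were compared with lmFit and eBayes in limma, each comparison on its own samples, with Benjamini-Hochberg adjustment over all genes tested and calls at 0.05. Cxcl2 passed the filter in no comparison and Ccl17 did not pass for genotype in trachea. Between tissues Ccl17, Ackr1, Cxcr1, Ccr6 and, in wild-type mice, Cxcr5 passed through the tissue where they were high. Their p-values between tissues give no support beyond that detection.

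Where no array of a group detected a gene, its change is a bound, the mean of the brighter group against, per array, the higher of the lowest detected signal and its own value. Intervals are at 95%. The number of arrays limits the precision. The members and the gene lists were chosen with earlier results of these data known. Named are all members with every probe, up to 4 called genes per direction and list or otherwise the 2 with the smallest p, the receptors of the members, and the 3 genes with the highest r to a member in each tissue. Promoter windows came from RefSeq for 9 of 10 members. Alternatives were other background and scaling choices, the authors' log2 table, other filters, first arrays only, 1 model of all groups, an intensity trend, the replicate number as a block and each sample left out.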

Additional observations from a re-analysis of the deposited data

Results flagged for a closer look

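Of 50 groups of values of the detected member probes, 2 held a sample far from the others of its group, where chance alone flags about 1 in 20 groups. The second probe of Ccl11 was at 8.19 in wild-type trachea 4, with the next wild-type trachea at 7.00, and the first probe of Ccl11 also had its highest trachea value in this sample, 9.39. The second probe of Cxcl14 was at 7.98 in Car6-/- lung 6, below the next Car6-/- lung at 8.26, while the brighter probe stood at 10.01 there, inside its group. What lies behind these samples was not tested.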

How the results depend on the processing

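The tissue differences of the members, by their brightest probes, kept their direction under every setting run for them. They were smallest for Ccl6, Cxcl13, Ccl17 and Ccl11 with no background correction. In wild-type mice the call was lost for Ccl9 under median scaling or quantile normalization within each tissue, and for Ccl19 in 1 model of all 4 groups. Between genotypes the members called stayed at 0 throughout. The number of genes called in lung, 2, was 5 with no background correction, an offset of 50 or the authors' log2 table, 8 with detection required in every sample, 6 with an intensity trend, and 0 with median scaling, second arrays left out or all 4 groups in 1 model. In trachea it was 1127 with all 4 groups in 1 model. With single samples left out, genes called ranged between 0 and 44 in lung, 0 and 693 in trachea, and 0 and 675 for the difference of the genotype effect.

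Some genotype changes, none of them called, turned their sign or came to 0. They include the Ccl19 change in trachea, 0.77 with all samples. Values without Car6-/- trachea 1, 2 and 6 follow a choice made with member values known, and nothing is read from them. In lung Ccl19 was 0 with no background correction, an offset of 50 or the authors' table and -0.01 with second arrays left out, as was Cxcl12, -0.01. Without Car6-/- trachea 1, 2 and 6, the trachea changes were -0.13 for Cxcl12, -0.11 for Ccl6 and 0 for Ccl19, and the differences of the genotype effect -0.18 for Cxcl1, -0.14 for Cxcl12, -0.32 for Cxcl13, -0.43 for Cxcl14, -0.16 for Ccl6, -0.04 for Ccl11 and -0.01 for Ccl19. That difference was also -0.05 and -0.02 for Ccl11 with no background correction and an offset of 50, and -0.06 for Cxcl14 under median scaling. With single samples left out, the lung ranges were -0.02 to 0.21 for Cxcl1, -0.04 to 0.07 for Cxcl12, -0.05 to 0.15 for Ccl6 and -0.07 to 0.05 for Ccl19, the trachea range -0.27 to 0.07 for Cxcl14, and the difference ranged over -0.06 to 0.17 for Cxcl1, -0.29 to 0.36 for Cxcl13, -0.15 to 0.19 for Cxcl14 and -0.09 to 0.09 for Ccl11. Between tissues of Car6-/- mice without those 3 samples, Cxcl17 was -0.22 in place of 0.39, and calls were 3 higher and 9 lower for other ligands and 5 lower for receptors. The cause was not tested.

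The labels do not say whether sample numbers pair the samples, so the block is given here only. Same-numbered samples had a correlation of deviations over 0.1 in 3 of 6 pairs between genotypes in trachea. In lung, and between the tissues of either genotype, 0 pairs did. Correlations were -0.3 to -0.03 between genotypes in lung, -0.19 to 0.55 in trachea, -0.11 to 0.1 between tissues of Car6-/- mice and -0.14 to 0.1 in wild-type mice. With the replicate number as a block, genes called between genotypes were 0 in lung, 1 in trachea and 0 for the difference, and between tissues 4184 in Car6-/- and 6675 in wild-type mice, with 8 members called in each. Cxcl12 in lung was then -0.01 and Cxcl14 in lung 0.01. Near-background signal limits Cxcl1, Cxcl2 and Ccl17 in trachea.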
